A study of Mus musculus with 16 samples.

Results

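Very broad domains of 5-hydroxymethylcytosine (5hmC) were the 2454 regions, of 177720 in the deposited count table, whose end lies at least 10000 bp beyond their start on the mouse genome build mm9, whatever they overlap. They made up 1.38% of the regions and 15.9% of the bases that all regions cover. The table counts reads of 16 libraries in CD4 T cells from spleen and lymph nodes of C57BL/6 Foxp3-eGFP mice aged 5 to 6 weeks, in which green fluorescent protein reports Foxp3, the lineage factor of regulatory T cells (Treg). Cells were induced Treg (iTreg) differentiated out of naive CD4 cells by TGFβ plus vitamin C (VitC) and retinoic acid (RA), iTreg made with TGFβ alone, Treg sorted as CD4+eGFP+, and naive cells sorted as CD4+eGFP-CD25-CD62LhiCD44lo. Each of the 4 groups had 2 pull-down and 2 input libraries. All groups carry the reporter allele, and no library had RA without VitC, so the effects of the pair cannot be told apart. The labels do not name separate mice or cultures behind the replicates, and p-values therefore cover only library-to-library spread, which can be technical.

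TET enzymes, which use vitamin C as a cofactor, oxidise 5-methylcytosine to 5hmC, a step toward the loss of DNA methylation. In many cell types 5hmC is dense over the bodies of transcribed genes and at enhancers, and sparse at CG-rich promoters that stay unmethylated. In the CMS-IP assay bisulfite turns 5hmC into cytosine-5-methylenesulfonate, an antiserum precipitates the fragments that carry it, and the reads describe where 5hmC lies, not expression. A lower level can reflect fewer cells that carry the mark or less of it per cell, which cannot be told apart in these bulk libraries.

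Sequences below are shown for the microRNA loci and promoters on which later paragraphs turn. They come from RefSeq for build GRCm38.p6, which is not the build of the count table. The first pair belongs to Mir29a and Mir29b-1, neighbouring genes on chromosome 6 beside a run of 5 domains for which the table gives no gene ID. The next 4 belong to microRNA genes that a domain covers. Capitals mark the seed, bases 2 to 8, which pairs with targets. miR-29a-3p and miR-29b-3p share the seed AGCACCA, and the other seeds differ from it and from each other. These loci were picked after their values were seen.
miR-29a-3p: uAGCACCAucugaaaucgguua
miR-29b-3p: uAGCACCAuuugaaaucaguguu
let-7g-5p: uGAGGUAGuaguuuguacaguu
miR-339-5p: uCCCUGUCcuccaggagcucacg
miR-141-3p: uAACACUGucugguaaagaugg
miR-200c-3p: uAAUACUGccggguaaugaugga

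The 2 promoters shown are those of Cd8a and Hif1a, whose domains reach the annotated promoter and had opposite differences between iTreg and naive cells. Each runs 5′ to 3′ over 300 bases on the gene's plus strand, at chr6:71373177-71373476 and chr12:73907617-73907916 on GRCm38.p6. Capitals mark CG, the dinucleotide at which mammalian cells mainly place methylation and 5hmC. The Cd8a sequence holds 3 CG and the Hif1a sequence 25. Whether these 300 bases lie inside the domain was not tested, because no genome of the build mm9 was used.
Cd8a: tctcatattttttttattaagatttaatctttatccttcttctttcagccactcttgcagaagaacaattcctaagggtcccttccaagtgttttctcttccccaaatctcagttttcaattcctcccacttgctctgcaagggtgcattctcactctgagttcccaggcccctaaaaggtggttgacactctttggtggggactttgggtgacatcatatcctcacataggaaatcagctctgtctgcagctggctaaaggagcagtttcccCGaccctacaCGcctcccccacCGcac
Hif1a: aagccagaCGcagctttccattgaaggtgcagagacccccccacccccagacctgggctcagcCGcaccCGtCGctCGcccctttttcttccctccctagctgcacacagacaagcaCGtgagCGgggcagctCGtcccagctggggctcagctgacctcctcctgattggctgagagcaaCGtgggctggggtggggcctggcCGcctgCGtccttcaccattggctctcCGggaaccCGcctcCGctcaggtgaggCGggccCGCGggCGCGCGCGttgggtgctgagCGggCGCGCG

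Between 1648804 and 9731897 reads per pull-down fell in regions, against 1028822 to 1563165 per input, and TGFβ iTreg had the fewest pull-down reads. Pull-down over input reads came to 3.88 and 3.14 in RA+VitC iTreg, 1.49 and 1.72 in TGFβ iTreg, 4.90 and 6.33 in Treg, against 5.50 and 6.39 in naive cells. Levels are given as RPKM, computed here as the reads of a domain over its length in kb and over the library's reads in regions. The library total was scaled by TMM in the pull-downs and not in the inputs, and every level is relative to the other regions of its library. All 2454 domains passed the filter on low counts, with a median of 276.5 and 262.5 reads per domain in RA+VitC iTreg, 99 and 132 in TGFβ iTreg, 530 and 585 in Treg, against 551.5 and 693 in naive cells. Among marker genes of other cell types, a domain lay over 0 of 12 B cell genes, 1 of 9 myeloid and dendritic genes (Flt3) and 2 of 9 CD8 and NK cell genes (Cd8a and Cd8b1), against 15 of 20 T cell identity genes.

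The domains were 10003 to 128857 bp wide, with a median of 13798 bp against 745 bp over all regions. 505 of them were wider than 20000 bp and 32 wider than 50000 bp. Wider regions lay more often over a gene: the share that overlapped one was 57.4% of regions under 1000 bp, 63.8% from 1000 to under 5000 bp, 74.9% from 5000 to under 10000 bp and 86.2% of the domains. A longer region has more bases that can meet a gene, and length was not accounted for. Introns were part of 2103 domains and exons of 1417, a promoter was part of 540, a 5′ UTR of 651 and a 3′ UTR of 621, while 659 held only intron. The domains covered 1585 genes, which is 10.6% of the 14922 genes that any region overlaps, and 183 domains covered more than 1 gene. Chromosomes 11 (234 domains, 1.96% of its regions) and 15 (148, 1.89%) were the densest, and chromosome X held 8 (0.239%).

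Domains often followed one another. The median gap between neighbours was 109 kb, but 414 gaps were under 5000 bp and 185 under 1000 bp. Joined across gaps under 5000 bp, 728 domains formed 314 runs. The longest in bases was a run of 3 over Bach2 (4:32345584 to 32538242, 192659 bp), a transcriptional repressor that restrains effector differentiation. Runs of 6 lay over Med13l, a subunit of the Mediator kinase module (142162 bp), Mtss1 (122198 bp), Retreg1 (114155 bp) and Arid1b, a BAF chromatin remodelling subunit (112856 bp). The run of 5 on chromosome 6 (31020440 to 31166261, 145822 bp) carries no gene ID in the table. Of the 338 domains counted here as without a gene, 43 overlap a transcript all the same, the last 3 of this run among them. Any domain whose only gene ID was left out, as described under the processing, is counted among the 338.

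Pull-downs placed a larger share of their reads in the domains than inputs did. The share was 24.1% and 23.6% in RA+VitC iTreg, 19.5% and 20.7% in TGFβ iTreg, 21.8% and 22.1% in Treg, next to 22.9% and 23.0% in naive cells, against 13.9% to 14.1% in the 8 inputs. Wilson 95% intervals reached at most 0.0605 points to either side in pull-downs and 0.0669 in inputs, and they cover counting error only. The replicates of no group overlapped those of another, and the order ran from RA+VitC iTreg through naive cells and Treg to TGFβ iTreg. Scaled by total reads in both kinds of library, domain levels over input were 1.73- and 1.70-fold in RA+VitC iTreg, 1.40- and 1.49-fold in TGFβ iTreg, 1.55- and 1.58-fold in Treg, next to 1.63-fold in both naive libraries. Width comes from peaks called on these pull-downs, so the excess over input is a description and was not tested. Which libraries set the width of a domain is not given. A group with a strong signal could have set it, so the choice of domains is not independent of the group levels compared below. This holds for counts of calls, the order of the groups and trends with width.

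**Figure D1:**
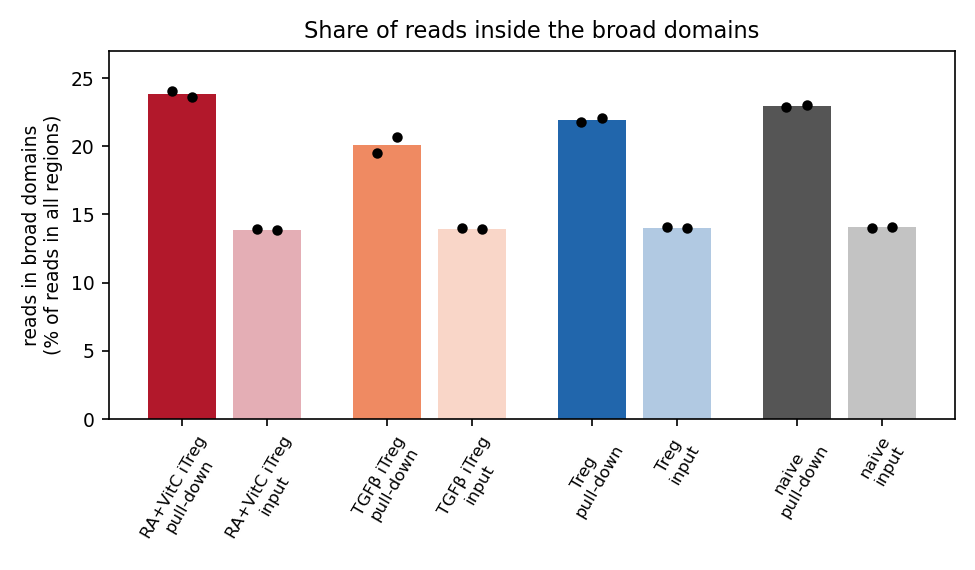
Reads in the 2454 domains as a percentage of reads in all regions (y axis), by group and library kind (x axis); points are the 2 libraries, bars their mean. RA+VitC iTreg pull-downs sit at 24.1% and 23.6%, TGFβ iTreg at 19.5% and 20.7%, and inputs of every group between 13.9% and 14.1%.

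Not every domain stood above input in every group. With both scaled by total reads, the median over domains of pull-down level over input level was 1.41 in RA+VitC iTreg, 1.23 in TGFβ iTreg, 1.44 in Treg and 1.48 in naive cells. The ratio was under 1 in 647 domains in RA+VitC iTreg, 769 in TGFβ iTreg, 305 in Treg and 395 in naive cells. With the pull-downs scaled by TMM, as in the levels given elsewhere and added here after the data were seen, the median was 1.58 in RA+VitC iTreg, 1.22 in TGFβ iTreg, 1.37 in Treg and 1.42 in naive cells, and 505, 804, 391 and 450 domains in the same order lay under 1. The place of RA+VitC iTreg among the groups thus turned with the scaling, and TGFβ iTreg had the lowest median under both.

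The median level rose with domain width in all 4 groups. From 10000 to under 15000 bp (1429 domains) the median level was 4.81 in RA+VitC iTreg, 3.88 in TGFβ iTreg, 4.31 in Treg and 4.56 in naive cells. From 50000 bp up (32 domains) it was 7.86 in RA+VitC iTreg, 5.84 in TGFβ iTreg, 6.28 in Treg and 7.36 in naive cells. Inputs stayed at a median of 3.31 to 3.42 in every width class. The median log2 fold change of RA+VitC over TGFβ iTreg was 0.25, 0.32, 0.39, 0.48 and 0.55 in the 5 classes from narrowest to widest, and the share over a gene was 82.8% in the narrowest and 96.9% in the widest. A longer domain also has more bases that can meet a gene. Width and depth move together in these classes, and their part in the order was not tested.

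Levels in the domains were less variable than elsewhere. The 4 group means spanned less than 2-fold in 1792 domains (73.0%), against 43.4% of all 135412 tested regions, and at least 4-fold in 97 domains (3.95%), against 16.7%. Replicates of a domain differed by a median of 0.10 on the log2 scale in RA+VitC iTreg, 0.20 in TGFβ iTreg, 0.08 in Treg and 0.06 in naive cells, against 0.39, 0.50, 0.27 and 0.25 over all tested regions in the same order. The domains hold many more reads than the typical region, and counting error falls with reads. RA+VitC iTreg had the highest mean in 1033 domains (42.1%, against 27.7% of all tested regions) and TGFβ iTreg in 149 (6.07%, against 21.7%). Treg had it in 364 (14.8%, against 21.5%) and naive cells in 908 (37.0%, against 29.1%). The lowest mean was in RA+VitC iTreg in 284 domains (11.6%, against 28.7% of all tested regions) and in TGFβ iTreg in 1168 (47.6%, against 26.0%). It was in Treg in 519 (21.2%, against 18.4%) and in naive cells in 483 (19.7%, against 26.9%). Of the domains, 110 passed the test in none of the 6 comparisons and 125 passed it in all 6. The same count was not made over all tested regions.

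The comparison of RA+VitC with TGFβ iTreg asks what adding RA and VitC to the culture changes. It was nearly one-sided in the domains, which were chosen by the width of peaks called on these same pull-downs. The part of that choice in the split was not tested. Levels were higher in RA+VitC iTreg in 1028 domains (41.9%, against 4.56% of all tested regions) and lower in 71 (2.89%, against 1.98%), by edgeR's quasi-likelihood test at an adjusted p under 0.05. Most of these differences were small: the median log2 fold change was 0.31, and with at least a 2-fold difference 99 domains were higher (4.03%, against 2.20%) and 2 were lower (0.0815%, against 1.40%). Among the 23572 regions with a mean of at least 50 reads, a depth nearer to that of the domains, 11.9% were higher and 12.2% lower. The split depended on scaling. Scaled by total reads in regions, which lowers the median of all regions by 0.18 in this comparison, 693 domains were higher and 191 lower, with a median of 0.13. Fitted only with regions of at least 50 reads, 716 were higher and 301 lower, and lower calls numbered 118 with libraries thinned to equal depth and 143 with only the 4 iTreg libraries. TGFβ iTreg libraries also had the fewest reads and the lowest ratio of pull-down to input, and their part in the result was not tested. Without TGFβ iTreg replicate 2 the lower calls fell to 19 and the median was 0.47, and without RA+VitC iTreg replicate 1 or 2 there were 35 and 40 lower calls.

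The largest gain over TGFβ iTreg was in a domain that overlaps no gene on chromosome 6, nearest to 4933427D06Rik (88992395 to 89005328). It had 9.65 and 9.24 RPKM in RA+VitC iTreg, 1.73 and 2.65 in TGFβ iTreg, 1.72 and 1.77 in Treg, against 1.15 and 1.20 in naive cells, which puts RA+VitC iTreg apart from all other groups (log2 2.08 over TGFβ iTreg, SE 0.14). A domain in Runx1, the core-binding transcription factor (16:92682382 to 92696710, over a 5′ UTR), had 11.6 and 10.4 in RA+VitC iTreg, 2.72 and 2.69 in TGFβ iTreg, 3.74 and 3.81 in Treg, against 4.25 and 4.74 in naive cells. RA+VitC iTreg stood highest and TGFβ iTreg lowest (log2 2.02 over TGFβ iTreg, SE 0.13, adjusted p 7.85e-50). Nrip1, a ligand-dependent corepressor of nuclear receptors including the RA receptors, had 21.4 and 19.3 over 46131 bp in RA+VitC iTreg, 5.72 and 5.56 in TGFβ iTreg, 9.01 and 9.39 in Treg, against 8.11 and 8.17 in naive cells (log2 1.85, SE 0.08). Lamc1, which encodes the laminin γ1 chain, had 8.46 and 9.87 in RA+VitC iTreg, 2.20 and 2.91 in TGFβ iTreg, 4.91 and 4.92 in Treg, against 1.12 and 1.13 in naive cells (log2 1.83, SE 0.15). RA+VitC iTreg had the highest level of the 4 groups in each of these.

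The 4 largest losses among the lower calls lay over Arhgap20, Spsb4, Slc4a4 and Itga9. A domain in Arhgap20 had 0.714 and 0.755 in RA+VitC iTreg, 2.04 and 1.26 in TGFβ iTreg, 4.93 and 4.66 in Treg, against 0.717 and 0.686 in naive cells (log2 -1.14, SE 0.28). Both iTreg groups and naive cells lay below the mean of the inputs in this domain, so the difference is between 2 levels below input. Spsb4, a SOCS-box protein, had 1.06 and 1.32 in RA+VitC iTreg, 2.01 and 2.82 in TGFβ iTreg, 2.55 and 2.48 in Treg, against 4.12 and 4.29 in naive cells (log2 -1.04, SE 0.21). Domains in Slc4a4, a bicarbonate transporter, and Itga9, an integrin chain, gave -0.99 (SE 0.20) and -0.84 (SE 0.21). Each of these 4 calls rested on single libraries. It was lost without TGFβ iTreg replicate 1 for Arhgap20 (log2 -0.75) and Itga9 (-0.38), without TGFβ iTreg replicate 2 for Spsb4 (-0.70) and Slc4a4 (-0.59), and also without RA+VitC iTreg replicate 1 for Itga9 (-0.74).

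**Figure D2:**
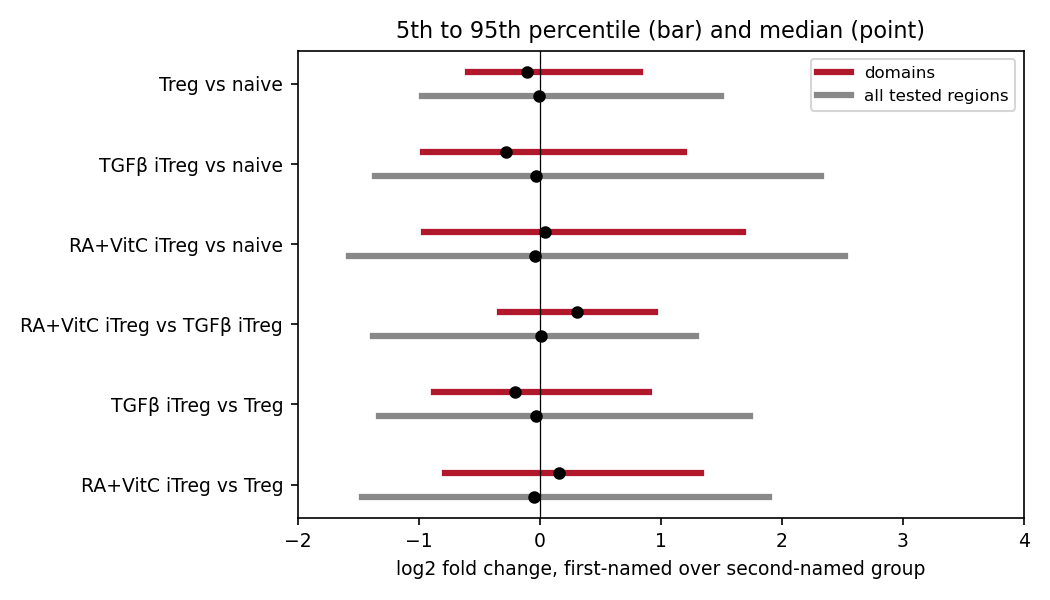
Log2 fold change (x axis) in the 6 comparisons (y axis) for the 2454 domains (red) and all 135412 tested regions (grey); bars run from the 5th to the 95th percentile and points mark the median. The red bars are shorter than the grey ones, and the median of the domains lies at 0.31 for RA+VitC over TGFβ iTreg and at -0.28 for TGFβ iTreg over naive cells.

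Next, RA+VitC iTreg were set against naive cells, the cell type they were made from. The labels link no naive library to a culture. 963 domains were higher (39.2%, against 21.9% of all tested regions) and 789 lower (32.2%, against 15.8%), with a median log2 fold change of 0.05. With at least a 2-fold difference, 341 were higher (13.9%, against 16.6%) and 109 lower (4.44%, against 10.2%), so large differences were no more frequent in the domains than elsewhere. The balance turned with scaling: by total reads, which lowers the median of all regions by 0.21 here, 769 were higher and 1181 lower and the median was -0.17. Among regions with at least 50 reads 33.9% were higher and 32.7% lower, and the same fit called 956 domains higher and 929 lower.

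The 4 largest gains over naive cells lay over Socs2, Ppm1l, Lrrc32 and Adamts6. Socs2, a feedback inhibitor of cytokine signalling, had 17.3 and 14.9 in RA+VitC iTreg, 7.26 and 9.74 in TGFβ iTreg, 1.91 and 1.89 in Treg, against 0.527 and 0.513 in naive cells (log2 4.95, SE 0.11, RA+VitC iTreg over naive). Ppm1l, a protein phosphatase, had 12.4 and 11.2 in RA+VitC iTreg, 7.58 and 9.58 in TGFβ iTreg, 1.36 and 1.41 in Treg, against 0.264 and 0.501 in naive cells (log2 4.90, SE 0.13). In both, the 4 groups stood in the same order with no overlap of replicates, and naive cells were below their inputs. Lrrc32, which docks latent TGFβ on the Treg surface, had 28.0 and 25.1 in RA+VitC iTreg, 14.9 and 17.7 in TGFβ iTreg, 7.35 and 7.52 in Treg, against 1.16 and 1.30 in naive cells (log2 4.43, SE 0.10). Adamts6, a secreted metalloproteinase, reached log2 4.20 (SE 0.14).

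The largest losses in RA+VitC iTreg lay over Flt3, Dtx1, Spsb4 and Cd8b1. Flt3, a receptor kinase of haematopoietic progenitors and dendritic cell precursors, had 1.70 and 2.15 in RA+VitC iTreg, 3.28 and 3.51 in TGFβ iTreg, 4.69 and 4.55 in Treg, against 7.65 and 7.83 in naive cells (log2 -2.01, SE 0.13, RA+VitC iTreg over naive). Dtx1, a Deltex ubiquitin ligase of the Notch pathway, gave -1.95 (SE 0.13), Spsb4 -1.82 (SE 0.15) and Cd8b1, the CD8 β chain, -1.78 (SE 0.12). The summed level over the 2 domains of CD8 and NK genes was 2.04 and 2.17 in RA+VitC iTreg, 2.46 and 2.63 in TGFβ iTreg, 6.06 and 5.78 in Treg, against 6.66 and 6.51 in naive cells. Flt3 is the only gene of the myeloid and dendritic list with a domain, so its own levels are those of the list. The part of other cells in these losses was not tested.

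TGFβ iTreg against naive cells leaned lower. 476 domains were higher (19.4%, against 13.1% of all tested regions) and 1163 lower (47.4%, against 8.22%), and the median log2 fold change was -0.28. Of regions with at least 50 reads 26.8% were higher and 21.1% lower. With at least a 2-fold difference, 160 were higher (6.52%, against 11%) and 100 lower (4.07%, against 4.39%), which are shares below or near those of all regions. Total scaling gave 476 higher and 1273 lower, and the fit of regions with at least 50 reads 693 and 986, with a median of -0.12. Without TGFβ iTreg replicate 2 the higher calls fell to 310.

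The leading gains were those of Ppm1l (log2 4.45, SE 0.16), Socs2 (4.04, SE 0.13), Lrrc32 (3.73, SE 0.11) and a domain whose nearest start is that of Prnp, the prion protein gene, at a distance written as -16556 bp. That last one had 9.14 and 8.10 in RA+VitC iTreg, 10.5 and 11.3 in TGFβ iTreg, 1.77 and 1.85 in Treg, against 0.824 and 1.04 in naive cells, so both iTreg groups stood together. The leading losses were over Dtx1 and Rasal1 (log2 -1.52, SE 0.15), Satb1 (-1.48, SE 0.08), a second domain of Dtx1 (-1.38, SE 0.15) and Cd8a (-1.38, SE 0.14). Satb1, a chromatin organiser that is high in thymocytes and naive T cells, had 4.82 and 5.21 over 45277 bp in RA+VitC iTreg, 4.47 and 6.02 in TGFβ iTreg, 8.93 and 9.83 in Treg, against 14.96 and 14.5 in naive cells. The domain on the Cd8a promoter, whose CG-poor sequence is printed above, had 2.25 and 2.30 in RA+VitC iTreg, 2.90 and 2.06 in TGFβ iTreg, 5.73 and 5.79 in Treg, against 6.56 and 6.22 in naive cells.

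The counts differed with position in the gene. TGFβ iTreg were higher than naive cells in 15.6% and lower in 51.5% of the 816 domains on a promoter or 5′ UTR, and in 17.8% and 49.0% of the 1335 domains in the rest of a gene. Of the 303 domains over neither a gene nor a promoter 36.6% were higher and 29.4% lower, with a median log2 fold change of 0.05 against -0.33 and -0.30 in the other classes. RA+VitC iTreg exceeded TGFβ iTreg in 44.7% of the first class, 42.6% of the second and 31.4% of the third. The difference between the classes itself was not tested.

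Sorted Treg against naive cells gave smaller differences. 504 domains were higher in Treg (20.5%, against 13% of all tested regions) and 896 lower (36.5%, against 10.1%), and the median log2 fold change was -0.11. With at least a 2-fold difference 88 were higher (3.59%, against 7.97%) and 25 lower (1.02%, against 3.18%), below the share of all regions in both directions. Among regions with at least 50 reads 23.8% were higher and 21.3% lower, and the same fit called 695 domains higher and 854 lower. The counts depended on depth and tool: thinned to equal depth 328 were higher and 409 lower, and DESeq2 called 496 lower. Myo1e, an unconventional myosin, had 2.80 and 2.70 in RA+VitC iTreg, 1.47 and 1.36 in TGFβ iTreg, 3.68 and 3.54 in Treg, against 0.411 and 0.262 in naive cells (log2 3.45, SE 0.15, Treg over naive, adjusted p 2.71e-108). In this domain Treg lay near the mean of the inputs, and naive cells and both iTreg groups lay below it. Ppp2r5c, a regulatory subunit of protein phosphatase 2A, gave log2 2.99 (SE 0.11), and 2 domains of Ikzf2, which encodes Helios, gave 3.24 (SE 0.09) and 2.90 (SE 0.10).

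The losses in Treg were led by 2 neighbouring domains in Hs3st3b1, a heparan sulfate sulfotransferase. The first (11:63702327 to 63717394) had 3.04 and 2.96 in RA+VitC iTreg, 2.59 and 2.56 in TGFβ iTreg, 0.899 and 1.00 in Treg, against 5.38 and 5.61 in naive cells (log2 -2.53, SE 0.11, Treg over naive), so Treg lay below both iTreg groups. The second gave -1.67 (SE 0.09), a domain near 2810001G20Rik -1.59 (SE 0.09) and Aqr, a splicing helicase, -1.41 (SE 0.09).

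The iTreg groups were also set against sorted Treg. TGFβ iTreg were higher in 465 domains (18.9%, against 9.58% of all tested regions) and lower in 928 (37.8%, against 5.82%), with a median log2 fold change of -0.20. At 2-fold 101 were higher (4.12%, against 7.49%) and 64 lower (2.61%, against 3.13%). Without TGFβ iTreg replicate 2 the higher calls fell to 295, and without replicate 1 the median was -0.13. Among regions with at least 50 reads 24.2% were higher and 18.2% lower, and the same fit called 655 domains higher and 875 lower. RA+VitC iTreg were higher than Treg in 1069 domains (43.6%, against 17.8%) and lower in 535 (21.8%, against 11.4%), with a median of 0.16, and at 2-fold in 255 (10.4%, against 12.1%) and 64 (2.61%, against 7.30%). This lean also turned with scaling by total reads, where 764 were higher and 974 lower and the median was -0.08, and 969 were higher and 806 lower in the fit of regions with at least 50 reads. In that set of regions 31.1% were higher and 29.4% lower.

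The domains with the largest excess in iTreg over Treg were shared in part between the cultures. For TGFβ iTreg they lay over Raly, an RNA-binding protein (log2 2.72, SE 0.11), Ppm1l (2.64, SE 0.13), near Prnp (2.60, SE 0.13) and over Ubl7 (2.58, SE 0.13). For RA+VitC iTreg they lay over Ppm1l (3.08, SE 0.11) and Socs2 (3.08, SE 0.09), near Srp9 (2.97, SE 0.10) and over Popdc2 (2.79, SE 0.10). Both comparisons share the Treg libraries. Raly had 14.2 and 14.0 in RA+VitC iTreg, 14.7 and 16.7 in TGFβ iTreg, 2.46 and 2.32 in Treg, against 1.55 and 1.46 in naive cells.

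Domains in Ikzf2 and Arhgap20 were among those furthest below Treg in both iTreg groups. The 24584-bp domain in Ikzf2 had 2.53 and 2.41 in RA+VitC iTreg, 2.31 and 2.30 in TGFβ iTreg, 9.42 and 9.29 in Treg, against 0.996 and 0.979 in naive cells. iTreg were thus above naive cells and below Treg (log2 -1.92, SE 0.09, for RA+VitC and -2.02, SE 0.11, for TGFβ iTreg over Treg). The 34532-bp domain over Arhgap20 and its antisense gene had 1.02 and 1.10 in RA+VitC iTreg, 1.99 and 1.68 in TGFβ iTreg, 5.43 and 5.49 in Treg, against 2.23 and 2.21 in naive cells (log2 -2.36, SE 0.10, for RA+VitC iTreg over Treg).

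**Figure D3:**
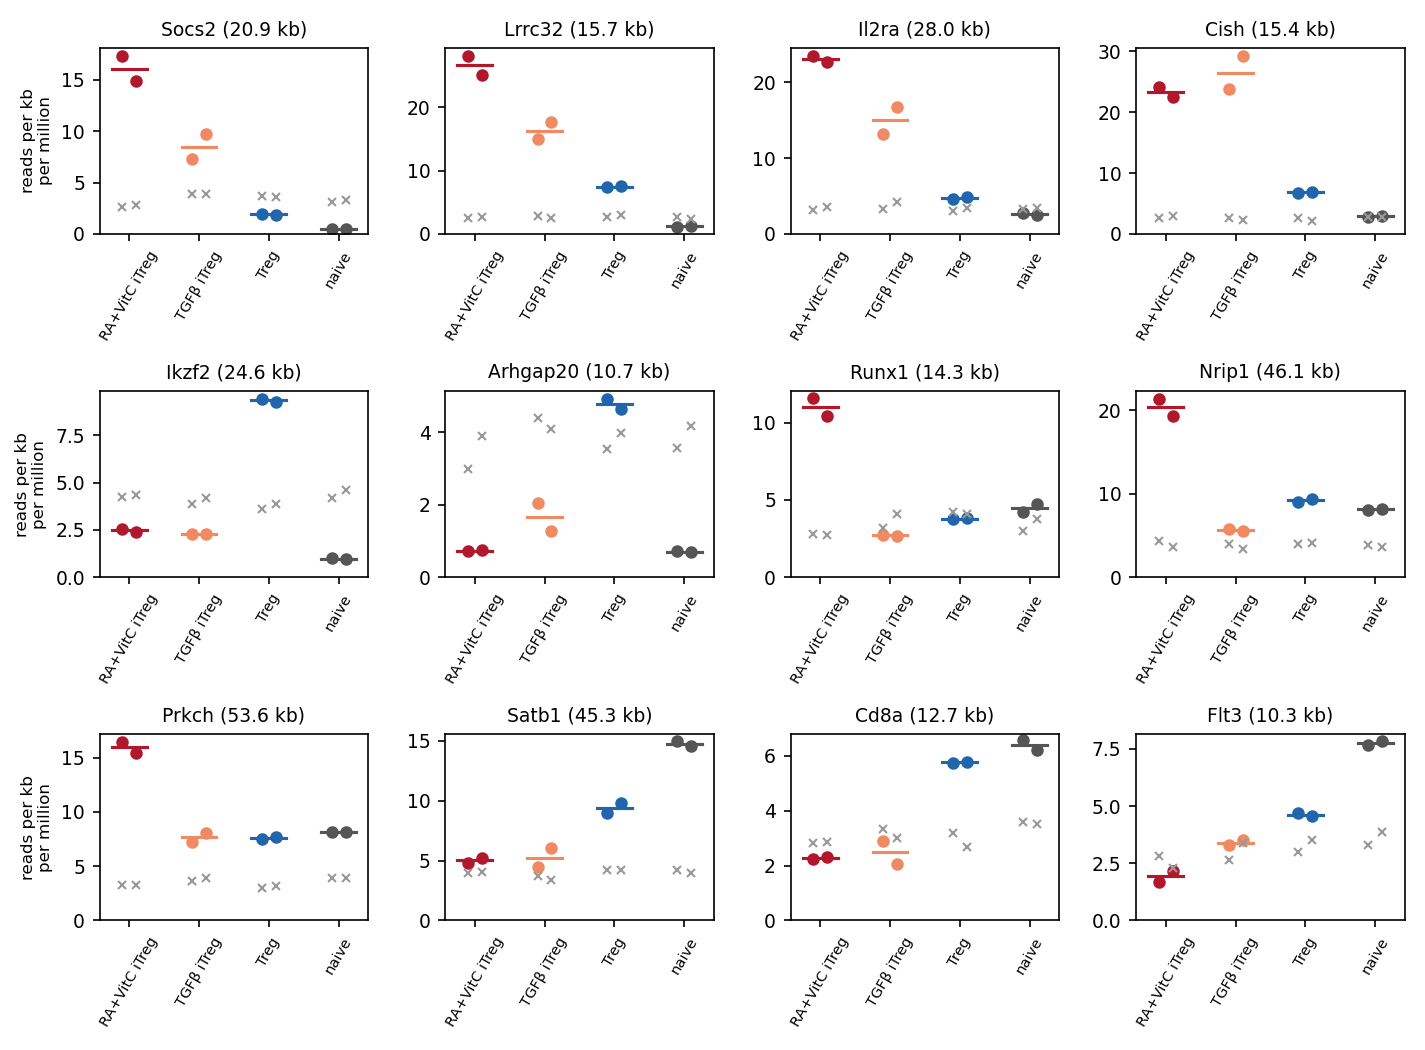
RPKM (y axes) in 12 domains by group (x axes); dots are the 2 pull-down libraries, short lines their mean, and grey crosses the 2 inputs. Socs2, Lrrc32 and Il2ra are highest in RA+VitC iTreg and lowest in naive cells, Ikzf2 and Arhgap20 stand out in Treg, and Satb1, Cd8a and Flt3 are highest in naive cells.

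Many genes carried several domains: 398 had at least 2 and 178 at least 3. Of the 398, RA+VitC iTreg were higher than TGFβ iTreg in every called domain of 277 and lower in every called domain of 10, with both directions in 3 and no call in 108. Against naive cells the same count was 169 higher, 137 lower, 65 both and 27 none for RA+VitC iTreg, and 82, 223, 51 and 42 for TGFβ iTreg. Treg against naive cells gave 118 higher, 190 lower, 18 both and 72 none. Of all domains, 41.9% were higher and 2.89% lower in RA+VitC than in TGFβ iTreg. Against naive cells it was 39.2% and 32.2% in RA+VitC iTreg, 19.4% and 47.4% in TGFβ iTreg, and 20.5% and 36.5% in Treg. A count of genes is not the same measure as a share of domains, because a gene with several domains has more chances of a call. Whether domains of the same gene agree more often than these shares give was not tested.

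Foxp1, a forkhead factor that keeps naive T cells quiescent, had the most domain sequence, 13 domains that together cover 409.8 kb of the 595.7 kb between its transcript ends. All 13 were higher in RA+VitC than in TGFβ iTreg (log2 0.47 to 1.17), also by total scaling, and 10 were higher and none lower than in naive cells (9 and 1 by total scaling). Treg were higher than naive cells in 1 and lower in 9. The domain at 6:99216494 to 99266318, over a promoter and 5′ UTR of the gene, had 13.9 and 12.7 in RA+VitC iTreg, 5.58 and 6.44 in TGFβ iTreg, 4.65 and 4.60 in Treg, against 5.53 and 5.48 in naive cells (log2 1.14, SE 0.08, adjusted p 9.98e-40, RA+VitC over TGFβ iTreg). The domain at 6:99027266 to 99045725 in the same gene had 6.09 and 5.82 in RA+VitC iTreg, 3.36 and 4.47 in TGFβ iTreg, 5.10 and 5.13 in Treg, against 6.29 and 5.98 in naive cells. Naive cells thus reached the level of RA+VitC iTreg in the second domain (log2 -0.04, SE 0.09, RA+VitC iTreg over naive) and not in the first (1.27, SE 0.07).

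**Figure D4:**
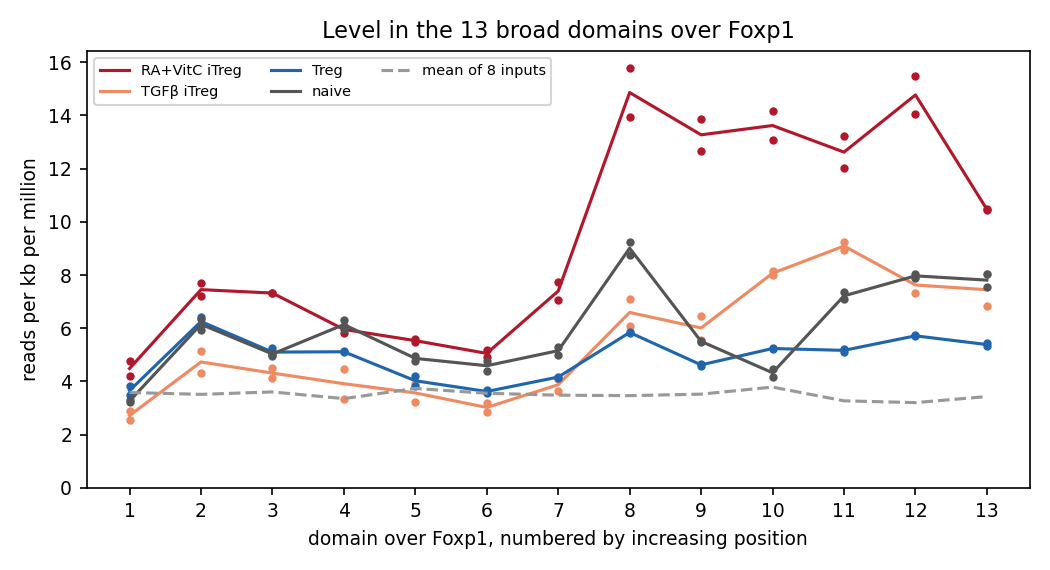
RPKM (y axis) in the 13 domains over Foxp1, numbered by increasing position (x axis, not to scale); dots are libraries, lines group means and the dashed line the mean of the 8 inputs. RA+VitC iTreg lie above TGFβ iTreg throughout, while naive cells come level with RA+VitC iTreg in the fourth domain.

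Other genes with long domains fell into different patterns. Runx1 (7 domains, 145.2 kb) was higher in RA+VitC than in TGFβ iTreg in 7 (log2 0.54 to 2.02), and lower in TGFβ iTreg than in naive cells in 7. Prkca, a classical protein kinase C (5 domains), was higher in RA+VitC iTreg than in naive cells in 5 (log2 1.20 to 2.05) and higher than in TGFβ iTreg in 5. Bach2 (5 domains, 270.4 kb) was higher in RA+VitC than in TGFβ iTreg in 4 and higher than in naive cells in 5 (4 by total scaling). Ikzf2 (5 domains) was higher than in naive cells in all 5 in RA+VitC iTreg, TGFβ iTreg and Treg alike (log2 1.32 to 3.24 in Treg). Med13l (6 domains) went the other way, lower in RA+VitC iTreg than in naive cells in 5 and lower in TGFβ iTreg in 6, with no call between the iTreg groups.

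Foxn3, a forkhead factor with 10 domains over 239.2 kb, was higher in Treg than in naive cells in 9, and lower in TGFβ iTreg than in Treg in 9. RA+VitC iTreg were higher than naive cells in 6 of its domains and lower in none, but 2 higher and 3 lower by total scaling. Prkch, another protein kinase C, was higher in RA+VitC iTreg than in naive cells in 5 of 5 and than in TGFβ iTreg in 3. Its 53606-bp domain had 16.5 and 15.4 in RA+VitC iTreg, 7.24 and 8.09 in TGFβ iTreg, 7.53 and 7.71 in Treg, against 8.14 and 8.18 in naive cells, so 3 groups were level and 1 stood apart. Fyn, a Src-family kinase of T cell receptor signalling with 7 domains, was lower in TGFβ iTreg than in naive cells in 6, and Arid1b, with 9, also in 6.

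The 10 widest domains lay over Bach2 (128857 bp, and a second of 63297 bp), Prex1 (91401 bp), Lef1 (90447 bp), Bcl11b (89433 bp), Gtf2i (79542 bp), Foxp1 (76593 bp), Ablim1 (75501 bp), Sema4d (71884 bp) and Rasa3 (66561 bp). Lef1, Bcl11b and Bach2 encode transcription factors of T cell development and quiescence, and Sema4d encodes a semaphorin of the T cell surface. The widest, in Bach2, had 14.7 and 13.7 in RA+VitC iTreg, 6.60 and 8.29 in TGFβ iTreg, 6.88 and 7.17 in Treg, against 8.86 and 8.81 in naive cells (log2 0.93, SE 0.07, RA+VitC over TGFβ iTreg). Sema4d had 16.8 and 14.1 in RA+VitC iTreg, 7.87 and 8.85 in TGFβ iTreg, 7.05 and 7.04 in Treg, against 7.03 and 7.29 in naive cells. Bcl11b had 15.5 and 14.6 in RA+VitC iTreg, 9.13 and 11.1 in TGFβ iTreg, 11.3 and 11.9 in Treg, against 14.2 and 14.3 in naive cells. RA+VitC iTreg thus stood apart from all other groups in Bach2 and Sema4d, and level with naive cells in Bcl11b (log2 0.08, SE 0.07).

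Small differences in these wide domains were less secure. Lef1 had 14.2 and 12.2 in RA+VitC iTreg, 8.29 and 10.1 in TGFβ iTreg, 10.8 and 11.1 in Treg, against 15.6 and 15.6 in naive cells. It was lower than naive cells in TGFβ iTreg (log2 -0.76, SE 0.07) and Treg (-0.51, SE 0.07). The smaller loss in RA+VitC iTreg (-0.24, SE 0.07) no longer passed the test without RA+VitC iTreg replicate 2 (-0.10). The loss of the widest Bach2 domain in TGFβ iTreg against naive cells (-0.24) was not called without TGFβ iTreg replicate 1 (-0.10) or naive replicate 1 (-0.25). Prex1, a Rac exchange factor, was level within 0.26 on the log2 scale in all comparisons.

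Gene lists were read for the number of domains over their members, and each count is set beside the share of all 2454 domains, of which 41.9% were higher and 2.89% lower in RA+VitC than in TGFβ iTreg. Against naive cells the share of all domains was 39.2% higher and 32.2% lower in RA+VitC iTreg, 19.4% and 47.4% in TGFβ iTreg, and 20.5% and 36.5% in Treg. No list was tested against the other domains. Transcription factors of T cells had domains over 25 of 32 genes, 75 domains in all. RA+VitC iTreg were higher than TGFβ iTreg in 44 (58.7%, against 41.9% of all domains) and lower in none (33 and 1 by total scaling), higher than naive cells in 38 (50.7%, against 39.2%) and lower in 17 (31 and 27), while TGFβ iTreg were higher than naive cells in 14 and lower in 40 (53.3%, against 47.4%). Foxp1, Runx1 and Bach2 held 13, 7 and 5 of these 75 domains, and 13, 7 and 4 of the 44 domains higher than in TGFβ iTreg. Of the 38 higher than in naive cells they held 10, 4 and 5. Domains of the same gene were counted separately, and the share of the list without these genes was not computed. Tcf7, which encodes TCF1, held 2 domains that moved in opposite directions. The domain at 11:52079975 to 52093777 had 7.12 and 7.60 in RA+VitC iTreg, 4.70 and 6.08 in TGFβ iTreg, 3.24 and 3.39 in Treg, against 1.74 and 1.67 in naive cells. The domain beside it, at 11:52062116 to 52079004, had 5.08 and 5.03 in RA+VitC iTreg, 4.32 and 5.12 in TGFβ iTreg, 6.93 and 6.86 in Treg, against 10.6 and 11.02 in naive cells. The first was highest in iTreg and the second in naive cells (log2 2.11 and -1.09 for RA+VitC iTreg over naive). Nfatc2, a calcium-regulated factor, had 9.18 and 7.41 in RA+VitC iTreg, 6.63 and 7.38 in TGFβ iTreg, 2.81 and 3.12 in Treg, against 2.41 and 2.40 in naive cells.

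Treg signature genes had domains over 17 of 32 genes that any region overlaps, 22 domains in all, and none over Foxp3 itself. Treg were higher than naive cells in 21 (95.5%, against 20.5% of all domains) and lower in none, RA+VitC iTreg higher in 20 and lower in none (19 and 1 by total scaling), and TGFβ iTreg higher in 18 and lower in none. This list was known to mark Treg when it was chosen. Ctla4, an inhibitory receptor of Treg, had 13.1 and 12.4 over 32442 bp in RA+VitC iTreg, 11.02 and 13.6 in TGFβ iTreg, 3.50 and 3.39 in Treg, against 2.29 and 2.24 in naive cells. Il2ra, which encodes CD25, had 23.5 and 22.6 over 28037 bp in RA+VitC iTreg, 13.2 and 16.7 in TGFβ iTreg, 4.62 and 4.86 in Treg, against 2.71 and 2.56 in naive cells. Both were highest in the cultured cells, and the naive gate excluded CD25, which bears on Il2ra.

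Cytokine receptor and JAK-STAT genes had domains over 22 of 35 genes, 29 domains in all, with 11 higher and 11 lower in Treg than in naive cells, 13 higher and 8 lower in RA+VitC iTreg, and 7 higher and 12 lower in TGFβ iTreg. Those higher made up 37.9% in Treg, against 20.5% of all domains, 44.8% in RA+VitC iTreg, against 39.2%, and 24.1% in TGFβ iTreg, against 19.4%. By total scaling the count for RA+VitC iTreg was 11 higher and 12 lower. Cish, which like Socs2 encodes a feedback inhibitor induced by STAT5, had 24.1 and 22.6 in RA+VitC iTreg, 23.7 and 29.2 in TGFβ iTreg, 6.72 and 6.93 in Treg, against 2.80 and 3.01 in naive cells. Il2rb, the IL-2 receptor β chain, had 9.05 and 8.19 over 29106 bp in RA+VitC iTreg, 6.61 and 8.89 in TGFβ iTreg, 5.14 and 5.31 in Treg, against 1.97 and 1.95 in naive cells. The iTreg groups overlapped in both.

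T cell receptor signalling and costimulation genes had domains over 29 of 40 genes, 55 domains in all. Of these 2 were higher and 34 lower (61.8%, against 36.5% of all domains) in Treg than in naive cells, 6 higher and 37 lower (67.3%, against 47.4%) in TGFβ iTreg, and 13 higher and 21 lower (38.2%, against 32.2%) in RA+VitC iTreg (10 and 38 by total scaling). RA+VitC iTreg were higher than TGFβ iTreg in 21 (38.2%, against 41.9%) and lower in none (15 and 1). Grap2, an adaptor of the receptor complex, had 25.7 and 23.0 in RA+VitC iTreg, 11.7 and 13.5 in TGFβ iTreg, 8.32 and 7.44 in Treg, against 12.6 and 12.4 in naive cells. Prkcq, the protein kinase C of the immune synapse, had 13.4 and 12.4 in RA+VitC iTreg, 9.20 and 10.6 in TGFβ iTreg, 6.38 and 6.69 in Treg, against 9.35 and 9.16 in naive cells. In Fyn the 31058-bp domain had 8.01 and 7.50 in RA+VitC iTreg, 4.27 and 5.13 in TGFβ iTreg, 8.002 and 8.01 in Treg, against 10.7 and 10.1 in naive cells, so naive cells led there and RA+VitC iTreg led in the first pair.

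TGFβ pathway genes had domains over 13 of 25 genes, 25 domains in all, of which 13 (52%, against 41.9% of all domains) were higher and none lower in RA+VitC than in TGFβ iTreg (11 and 4 by total scaling). TGFβ iTreg were higher than naive cells in 5 and lower in 16 (64%, against 47.4%). The type II receptor Tgfbr2 had 9.86 and 9.73 in RA+VitC iTreg, 5.00 and 4.96 in TGFβ iTreg, 7.92 and 8.66 in Treg, against 12.1 and 12.5 in naive cells. Pmepa1, a feedback inhibitor of the pathway, had 14.3 and 12.8 over 44731 bp in RA+VitC iTreg, 4.23 and 4.91 in TGFβ iTreg, 4.84 and 4.97 in Treg, against 3.62 and 3.79 in naive cells. The receptor was highest in naive cells and the inhibitor in RA+VitC iTreg (log2 1.56, SE 0.09, over TGFβ iTreg). Ldlrad4, another inhibitor, gave log2 1.00 (SE 0.10) in the same comparison.

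Retinoic acid genes had domains over 8 of 16 genes, 16 domains in all, of which 10 (62.5%, against 41.9% of all domains) were higher and none lower in RA+VitC than in TGFβ iTreg, also by total scaling. Against naive cells 12 (75%, against 39.2%) were higher and 3 lower in RA+VitC iTreg (10 and 4 by total scaling), and 1 was higher and 5 lower in TGFβ iTreg. Itga4, the α4 chain of the gut-homing integrin, had 12.5 and 11.8 in RA+VitC iTreg, 4.54 and 4.38 in TGFβ iTreg, 4.78 and 4.61 in Treg, against 4.97 and 4.95 in naive cells. Ncoa3, a nuclear receptor coactivator, had 14.4 and 13.1 in RA+VitC iTreg, 6.14 and 6.72 in TGFβ iTreg, 5.96 and 6.18 in Treg, against 6.06 and 5.73 in naive cells. In both, 3 groups were level and RA+VitC iTreg stood apart. Rarg, an RA receptor, had its highest level in Treg, with 3.36 and 2.97 in RA+VitC iTreg, 3.31 and 4.06 in TGFβ iTreg, 5.47 and 5.77 in Treg, against 2.67 and 2.38 in naive cells.

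Migration and homing genes had domains over 17 of 24 genes, 20 domains in all, of which 15 (75%, against 39.2% of all domains) were higher and 3 lower in RA+VitC iTreg than in naive cells (10 and 4 by total scaling) and 10 higher (50%, against 41.9%) and none lower than in TGFβ iTreg (7 and 1). A domain over Ccr4, a chemokine receptor, and Glb1 had 15.4 and 14.9 in RA+VitC iTreg, 7.27 and 8.89 in TGFβ iTreg, 5.64 and 5.83 in Treg, against 5.03 and 5.27 in naive cells.

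DNA methylation and TET genes had domains over 7 of 19 genes, 10 domains in all, with 7 higher (70%, against 41.9% of all domains) and 1 lower in RA+VitC than in TGFβ iTreg (6 and 1 by total scaling). The lower one was Tet1, with 2.10 and 1.98 in RA+VitC iTreg, 2.80 and 3.31 in TGFβ iTreg, 2.61 and 2.43 in Treg, against 5.34 and 5.36 in naive cells. Tet3 had 8.45 and 8.12 in RA+VitC iTreg, 6.75 and 6.88 in TGFβ iTreg, 5.11 and 5.15 in Treg, against 5.60 and 5.59 in naive cells. The TET genes with domains thus differed in direction between iTreg and naive cells (log2 -1.39 for Tet1 and 0.57 for Tet3, RA+VitC iTreg over naive). Mbd2, a reader of methylated DNA, had 14.6 and 14.8 in RA+VitC iTreg, 7.10 and 9.08 in TGFβ iTreg, 7.93 and 8.70 in Treg, against 9.37 and 9.65 in naive cells.

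Chromatin regulators had domains over 14 of 30 genes, 38 domains in all. TGFβ iTreg were higher than naive cells in 2 (5.26%, against 19.4% of all domains) and lower in 21 (55.3%, against 47.4%). RA+VitC iTreg were higher than naive cells in 8 (21.1%, against 39.2%) and lower in 15 (4 and 24 by total scaling). Kdm6b, a histone H3K27 demethylase gene, shared with Tmem88 a domain that had 3.45 and 3.54 in RA+VitC iTreg, 2.24 and 2.50 in TGFβ iTreg, 6.32 and 7.15 in Treg, against 4.71 and 5.17 in naive cells. Activation factors had domains over 8 of 30 genes, 12 domains in all, of which 9 were higher in each of RA+VitC iTreg, TGFβ iTreg and Treg than in naive cells (75%, against 39.2%, 19.4% and 20.5% of all domains in the same order), with 1, 1 and 0 lower. Hif1a, the hypoxia-inducible factor with the CG-rich promoter printed above, had 6.02 and 6.71 in RA+VitC iTreg, 4.80 and 6.00 in TGFβ iTreg, 3.28 and 3.79 in Treg, against 1.20 and 1.36 in naive cells (log2 2.30, SE 0.12, RA+VitC iTreg over naive). Irf8, an interferon regulatory factor, had 10.8 and 10.4 in RA+VitC iTreg, 4.05 and 3.99 in TGFβ iTreg, 3.002 and 2.56 in Treg, against 1.56 and 1.48 in naive cells.

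**Figure D5:**
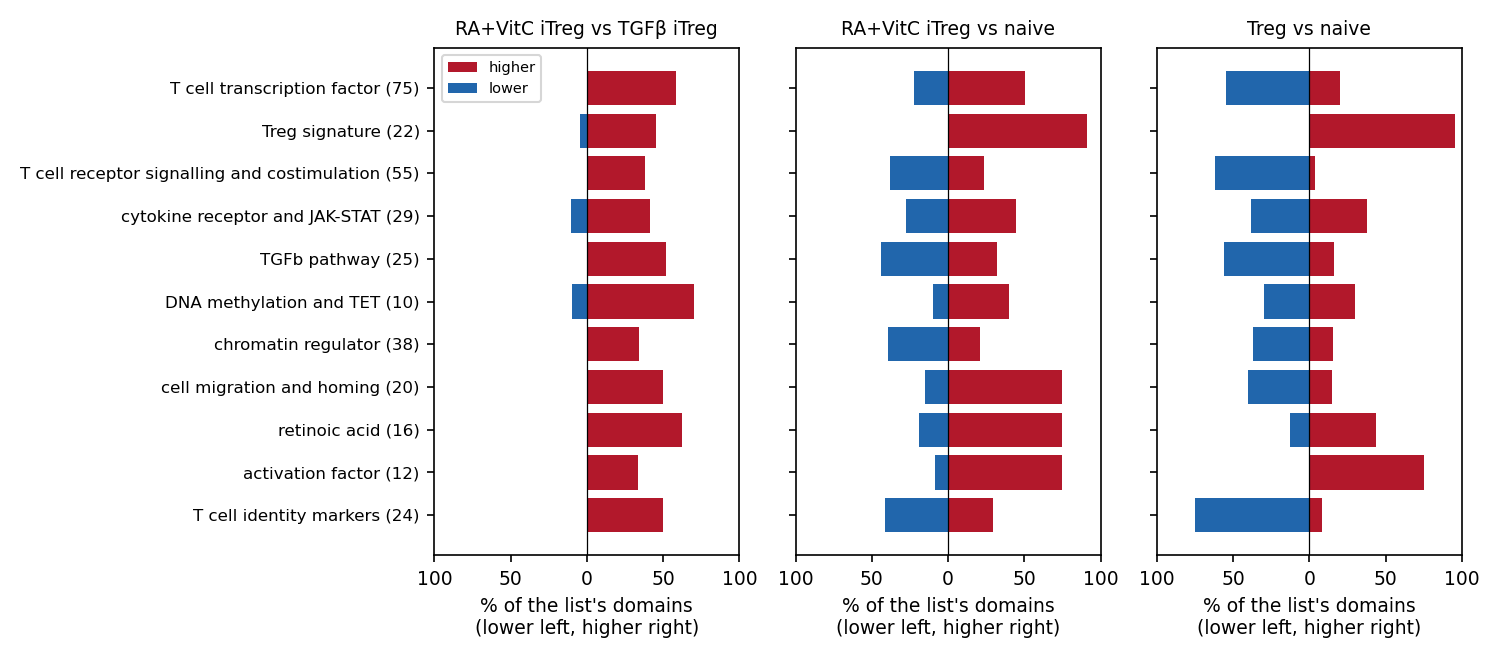
Share of each list's domains that were called higher (right, red) or lower (left, blue) at an adjusted p under 0.05 (x axes), for 11 lists (y axis, number of domains in brackets) in 3 comparisons. Of 22 Treg signature domains 20 are higher in RA+VitC iTreg and 21 in Treg than in naive cells, and T cell receptor domains are lower in Treg than in naive cells (34 of 55).

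T cell identity markers had domains over 15 of 20 genes, 24 domains in all. Treg were higher than naive cells in 2 and lower in 18 (75%, against 36.5% of all domains), TGFβ iTreg higher in 5 and lower in 16 (66.7%, against 47.4%), and RA+VitC iTreg higher in 7 and lower in 10 (41.7%, against 32.2%, and 5 and 17 by total scaling). The summed level over the list was 9.48 and 8.98 in RA+VitC iTreg, 6.25 and 7.49 in TGFβ iTreg, 7.52 and 7.71 in Treg, against 9.84 and 9.89 in naive cells. In 1 of the 4 domains of Ets1, a lymphocyte transcription factor, levels were lowest in naive cells, with 10.9 and 10.03 in RA+VitC iTreg, 4.97 and 5.08 in TGFβ iTreg, 4.86 and 5.34 in Treg, against 3.95 and 3.41 in naive cells. Over its 4 domains Treg were higher than naive cells in 1 and lower in 2 (log2 -0.80 to 0.48), and RA+VitC iTreg higher in 3 and lower in 1 (-0.44 to 1.51).

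The run of 5 domains on chromosome 6 has no gene ID in the table, but its last 3 domains overlap a transcript without a symbol, which also lies 744 bp from the second. The table gives Mir29b-1 as the nearest start of its first domain (31020440 to 31075238), at a distance written as -7346 bp. That domain had 21.2 and 18.01 in RA+VitC iTreg, 7.13 and 8.45 in TGFβ iTreg, 5.48 and 5.65 in Treg, against 4.18 and 4.52 in naive cells, against a mean of 3.35 in inputs. All 5 domains were higher in RA+VitC iTreg, by log2 0.73 to 1.33 over TGFβ iTreg, 1.09 to 2.90 over naive cells and 0.94 to 2.13 over Treg. TGFβ iTreg were higher than naive cells in 3 of the 5. The next domain, of 38232 bp, is among the widest with no symbol in the table. It had 20.4 and 18.1 in RA+VitC iTreg, 9.01 and 10.6 in TGFβ iTreg, 4.37 and 4.46 in Treg, against 2.61 and 2.56 in naive cells, so the groups stood in the same order.

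The domains covered 9 microRNA genes. The domain over Mirlet7g and its neighbour Wdr82 had 12.4 and 10.8 in RA+VitC iTreg, 13.3 and 15.2 in TGFβ iTreg, 4.59 and 4.61 in Treg, against 4.52 and 5.06 in naive cells. The domain over Mir339 had 11.5 and 10.8 in RA+VitC iTreg, 10.6 and 12.8 in TGFβ iTreg, 3.77 and 3.88 in Treg, against 4.39 and 4.50 in naive cells. Both were high in iTreg and level between Treg and naive cells. The domain over Mir141, Mir200c and Ptpn6, which encodes the phosphatase SHP-1, had 5.80 and 5.97 in RA+VitC iTreg, 4.47 and 4.54 in TGFβ iTreg, 5.05 and 5.47 in Treg, against 5.22 and 6.00 in naive cells, which was lower in TGFβ iTreg than in RA+VitC iTreg and naive cells, by at most 0.39 on the log2 scale, and passed no other comparison.

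The highest mean levels over the 8 pull-downs were in domains over Rhoh, a GTPase of T cell receptor signalling (15.2), Cish (14.9), Grap2 (14.3), Trpc4ap (14.0), Lrrc32 (12.9) and Bcl11b (12.8). Trpc4ap had 32.7 and 29.0 in RA+VitC iTreg, 9.01 and 10.2 in TGFβ iTreg, 7.96 and 8.73 in Treg, against 7.18 and 7.38 in naive cells. Rhoh had 29.6 and 26.4 in RA+VitC iTreg, 10.5 and 12.5 in TGFβ iTreg, 9.36 and 9.60 in Treg, against 11.7 and 11.99 in naive cells. In both, RA+VitC iTreg stood above all other groups. The ranking pools the 8 libraries, and RA+VitC iTreg raise it in both, while in naive cells Lef1 and Satb1, given above, had higher levels than Rhoh. The lowest were over Arhgap20 (1.97), Myo1e (2.03), Klf7 (2.07), Parp8 (2.09), Arhgef18 (2.16) and Gm4956 (2.26), where the mean of the inputs was 3.40 to 4.06.

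The domains with the smallest range over the groups lay over Aff3, Cblb, Slc37a1 and Nr4a3 and near Dusp5. Cblb, a ubiquitin ligase that restrains T cell activation, had 7.12 and 7.13 in RA+VitC iTreg, 6.61 and 8.10 in TGFβ iTreg, 7.07 and 7.36 in Treg, against 7.12 and 6.78 in naive cells. Aff3 had 4.82 and 5.26 in RA+VitC iTreg, 4.35 and 4.99 in TGFβ iTreg, 4.78 and 4.63 in Treg, against 4.77 and 4.70 in naive cells. No comparison passed the test in these 5.

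Just inside the width cut-off lay domains over Fpgs (10003 bp), Supt4a and Crtc3 (both 10005 bp). Just outside lay regions over Rbl1 (10000 bp, counting both end bases), near Fam76b (9990 bp) and over Stx6 (9986 bp). Fpgs had 2.71 and 3.23 in RA+VitC iTreg, 2.81 and 3.48 in TGFβ iTreg, 2.82 and 3.12 in Treg, against 2.90 and 2.82 in naive cells. Rbl1 had 6.47 and 5.85 in RA+VitC iTreg, 10.1 and 9.95 in TGFβ iTreg, 4.35 and 4.396 in Treg, against 4.56 and 4.62 in naive cells.

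Promoters listed for genes with a domain on the annotated promoter, alternative promoters included, were richer in CG than promoters in general. Of 562 genes with a domain on the annotated promoter 435 matched the RefSeq table, with 676 promoters of 300 bases. They held a median of 17 CG, against 7 over all 32851 promoters, and 99.6% of them had at least 1 CG, against 94.6%. At least 15 CG stood in 52.2% of them, against 34.6%. For the 285 of these genes with 1 promoter listed the median was 22 CG, against 7 over all 22862 such genes. CG reads the same on both strands, and a match is a description of these bases only.

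Inputs served as the background for the comparisons. The same test on the 8 inputs called 0 of the 2454 domains in any of the 6 comparisons, with 131 to 181 domains (5.34% to 7.38%) at an unadjusted p under 0.05. No domain thus differed between inputs beyond the test's threshold at the depth of the inputs.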

How the data were processed

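The authors deposited raw counts of reads per region for 8 pull-down and 8 input libraries, whole numbers in a union of broad MACS2 peaks (q 0.01 in the table's own name), with annotation columns, on build mm9 per the file headers. The submitters' processing notes name MACS2 2.1.0.20151222, SAMtools 1.7, Trim Galore 0.4.2 and bcl2fastq 2.20.0.442. Not given in the sources used here are the read counter, the aligner and whether libraries were pooled for peak calling.

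The 8 pull-downs entered 1 fit of their counts in edgeR 4.0.16 under R 4.3.3: TMM, filterByExpr with a minimum count of 10, the quasi-likelihood F test (residual degrees of freedom 4), and Benjamini-Hochberg adjustment over 135412 regions, threshold 0.05. SE is the size of the log2 fold change over the square root of F. Inputs were fitted the same way (44917 regions). DESeq2 1.42.0 was an alternative. In simulated counts tested for Treg against naive cells, 92 of 100 domains changed by 0.5 on the log2 scale and 100 of 100 changed by 1 were recovered, with 3 false calls among 127868 regions. The simulation gave all regions the same spread and left all but these domains unchanged. Treg and naive libraries are the deepest, so it does not describe the comparisons with iTreg or data in which many regions change.

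Named domains follow a rule: the 10 widest; per comparison the 4 highest and 4 lowest log2 fold changes among called domains with a symbol and no overlap of replicates; the 6 highest and 6 lowest mean levels; the 10 genes with most domain length; 4 genes per list with the lowest p; 3 on either side of the cut-off; the 5 least variable; and the 3 widest without a symbol. Ctla4, the second Tcf7 domain, the run near Mir29b-1 and the microRNA domains were added after their values were seen. Some domains that the rule names are not reported here. Members, lists and rule were chosen with earlier results of these data known. 1585 overlapped genes were taken from the table, 1581 with a symbol in RefSeq. Left out of every annotation column was 1 gene ID whose transcript models span most of chromosome 19. It stood on 50 domains and 3623 regions. A domain with only this ID therefore counts as one without a gene.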

Additional observations from a re-analysis of the deposited data

How the results depend on the processing

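All alternatives kept the direction of the 93 tests on the widest and the most changed domains, and 1058 of 1116 repeats kept the call while 58 lost it. Domain counts depend on depth, scaling and width. Thinned to equal depth (1 draw), 328 domains were higher and 409 lower in Treg than in naive cells, 118 were lower in RA+VitC than in TGFβ iTreg, and medians were -0.029 for RA+VitC iTreg over naive, 0.20 over TGFβ iTreg and 0.060 over Treg. DESeq2 called 496 lower in Treg than in naive cells. Total reads gave 191 lower and a median of 0.13 for RA+VitC over TGFβ iTreg, -0.17 over naive, and 974 lower with a median of -0.081 over Treg. Regions with at least 50 reads gave 301 lower and 0.10 for RA+VitC over TGFβ iTreg, 806 lower and 0.039 for RA+VitC iTreg over Treg, -0.12 for TGFβ iTreg over naive and -0.11 over Treg. With only the 4 libraries compared, 143 were lower and the median was 0.19 for RA+VitC over TGFβ iTreg. The cause of these shifts was not tested.

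From 8000 bp (3872 regions) the count rises with the number of regions: 807 higher for Treg over naive, 809 for TGFβ iTreg over naive, 1506 higher and 1213 lower for RA+VitC iTreg over naive, 120 lower over TGFβ iTreg, 796 higher for TGFβ iTreg over Treg, and 1632 higher and 872 lower for RA+VitC iTreg over Treg. From 15000 bp (1025 regions) there were 221 higher and 405 lower for Treg over naive, 203 and 541 for TGFβ iTreg over naive, 434 and 314 for RA+VitC iTreg over naive, 550 and 19 over TGFβ iTreg with a median of 0.37, 189 and 445 for TGFβ iTreg over Treg, and 499 and 207 for RA+VitC iTreg over Treg. Shares of reads were 30.0% and 15.3% in RA+VitC iTreg, 25.8% and 12.4% in TGFβ iTreg, 27.6% and 13.7% in Treg, against 28.6% and 14.4% in naive cells at the 2 widths.

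Without each replicate in turn, higher and lower counts were 750 to 1141 and 19 to 59 for RA+VitC over TGFβ iTreg (median 0.27 to 0.47), 838 to 911 and 570 to 809 for RA+VitC iTreg over naive (-0.01 to 0.09), 948 to 996 and 361 to 543 over Treg (0.12 to 0.20), 310 to 484 and 897 to 1138 for TGFβ iTreg over naive (-0.39 to -0.22), 295 to 485 and 641 to 873 over Treg (-0.30 to -0.13), and 390 to 455 and 676 to 738 for Treg over naive (-0.13 to -0.09). The lone library is then assumed to vary like the other groups.

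Replicate numbers showed no pairing of the samples: same-numbered deviations correlated at 0.01 over all regions between Treg and naive and between the iTreg groups, and at 0.05 and 0.02 over the domains. Counting error in single regions lowers such a correlation, so it cannot decide whether samples were paired. The titles of both iTreg cultures share a pair of tags whose meaning the labels do not give. With the replicate block, calls were 944 higher and 61 lower for RA+VitC over TGFβ iTreg, 929 and 748 for RA+VitC iTreg over naive, 1019 and 499 over Treg, 445 and 1109 for TGFβ iTreg over naive, 434 and 869 over Treg, and 465 and 787 for Treg over naive.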
